A study of Mus musculus with 6 samples.

Results

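The kinesin and dynein transport motors, with their light chains and the dynein partner complex dynactin, were followed in poly-A selected RNA of the ventral lumbar cord, dissected from C57BL/6 mice at 5 weeks of age, in 3 wild-type (WT) and 3 Gde2KO libraries. Members were the annotated protein-coding mouse genes whose symbol starts with Kif followed by a digit or c, with Klc followed by a digit, with Dync, with Dynl, or with Dctn followed by a digit, Dynlrb2 left out. The rule found 68 of 22028 protein-coding genes. Of these, 53 had exonic bases on which a level could be counted, and 41 had a mean of at least 1 FPKM (fragments scaled to transcript length and library size, a level per length) and were tested among 12894 genes. Gde2KO mice lack GDE2, a membrane enzyme encoded by Gdpd5 that releases proteins from their glycosylphosphatidylinositol anchors. The labels give both genotypes the same strain, age and tissue, and give neither the sex, nor how the allele was made, nor whether a library holds 1 animal. The p-values below therefore measure the spread between these libraries.

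Kinesins are motor proteins that mostly walk towards the plus ends of microtubules, which in axons point away from the cell body. Cytoplasmic dynein walks the other way and needs dynactin to carry most of its cargo, so the pair bring signalling endosomes and old organelles back to the cell body. Spinal motor neurons have some of the longest axons of the body, and mutations in KIF5A, DYNC1H1 and DCTN1 cause inherited diseases of motor neurons in humans.

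Gdpd5, on chromosome 7 from 99381414 to 99461877, stood at 5.38, 6.54 and 5.95 FPKM in WT replicates 1 to 3 and at 1.24, 1.20 and 0.946 in Gde2KO replicates 1 to 3. The genotypes of the labels were thus apart for the targeted gene, with a fold of 0.202 (95% interval 0.162 to 0.253; limma adjusted p = 0.00526). Each library held 31899 to 33791 assembled transcripts, and its relative depth ran from 0.910 to 1.14 with 1 as the average. Gde2KO replicate 3 stood apart, where 56.2% of the multi-exon transcripts followed an annotated intron chain and the other 5 libraries had 49.3% to 49.8%. It held the highest or the lowest of the 6 values in 51.2% of the motor genes tested and in 52.2% of all genes tested. All 15 general neuron markers were tested, and the sums of their levels were 4695 to 5271 FPKM in WT and 5120 to 5606 in Gde2KO. The fitted difference was above 0 in 4 and below 0 in 11 of them, with a median log2 difference of -0.08, and none passed the test. Of the 10 motor neuron markers, summing to 217 to 256 FPKM in WT and 248 to 293 in Gde2KO, none passed the test. Of these 8 were fitted above 0 and 2 below, with a median log2 difference of 0.12. The 8 sensory ganglion markers summed to 36.3 to 57.0 FPKM in WT and 46.9 to 58.5 in Gde2KO. Scn10a, Trpv1, Avil and Prdm12 among them were listed at 0 in every library, and 1 of the 8 was tested and did not pass. The 9 astrocyte markers summed to 2123 to 2356 FPKM in WT and 1895 to 2108 in Gde2KO, with 5 fitted above 0 and 4 below. The 7 endothelial markers summed to 62.9 to 73.4 FPKM in WT and 59.3 to 62.5 in Gde2KO, with all 7 fitted below 0. The 13 mature oligodendrocyte markers summed to 6817 to 9858 FPKM in WT and 8001 to 9887 in Gde2KO. Of them 8 were fitted above 0 and 5 below. For the 5 Schwann cell markers the sums were 208 to 340 FPKM in WT and 130 to 352 in Gde2KO. Of the 4 that were tested, 1 was fitted above 0 and 3 below. No astrocyte, endothelial, oligodendrocyte or Schwann cell marker passed the test, and the part of cell makeup in the results was not tested. None of the 12 proliferation markers reached a mean of 1 FPKM.

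Many motor genes make more than one protein by taking up or leaving out short stretches of coding sequence. The stretches below were those held and skipped in all 6 libraries that the results on splicing turn on, and each is written 5′ to 3′ on its gene's strand with the alternative bases in capitals and 12 bases of the neighbouring exons in lower case, from the mm10 genome sequence and the GENCODE vM21 annotation. All lie inside coding sequence.
Kif1a, 27-base exon, chr1:93034546-93034572, minus strand: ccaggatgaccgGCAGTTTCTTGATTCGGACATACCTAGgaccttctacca
Kif1b, 18-base exon, chr4:149265345-149265362, minus strand: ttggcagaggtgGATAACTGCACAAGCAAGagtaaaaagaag
Kif1b, 42-base exon, chr4:149261160-149261201, minus strand: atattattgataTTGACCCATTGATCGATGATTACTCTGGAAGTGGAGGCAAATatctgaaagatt
Kif3a, 9-base exon, chr11:53590717-53590725, plus strand: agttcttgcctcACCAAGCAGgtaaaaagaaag
Kif21a, 21-base exon, chr15:90964975-90964995, minus strand: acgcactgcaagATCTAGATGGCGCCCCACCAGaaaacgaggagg
Kif21a, 108-base exon, chr15:90952711-90952818, minus strand: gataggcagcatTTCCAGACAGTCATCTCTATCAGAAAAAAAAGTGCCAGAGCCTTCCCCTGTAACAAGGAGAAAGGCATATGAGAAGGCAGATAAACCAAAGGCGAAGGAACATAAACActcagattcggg
Kif21a, 15-base exon, chr15:90948324-90948338, minus strand: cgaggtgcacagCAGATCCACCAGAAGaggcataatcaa
Dync1i1, 33 bases between 2 acceptor sites, chr6:5769701-5769733, plus strand: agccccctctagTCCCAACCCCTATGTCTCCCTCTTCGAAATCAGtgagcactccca
Dync1i2, 60-base exon, chr2:71233649-71233708, plus strand: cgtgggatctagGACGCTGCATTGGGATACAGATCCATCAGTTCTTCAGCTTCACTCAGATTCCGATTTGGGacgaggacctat
Dync1li2, 42-base exon, chr8:104423586-104423627, minus strand: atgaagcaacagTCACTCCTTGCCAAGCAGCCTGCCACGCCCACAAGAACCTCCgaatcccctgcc

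No motor gene passed the test between the genotypes. Of the 41 tested, 0 passed limma at an adjusted p of 0.05, where 0.116% of all 12894 genes passed (15 genes, 5 higher and 10 lower in Gde2KO, 0.0388% and 0.0776%). At an unadjusted p of 0.05 the count was 1 motor gene, Kif3c, against 3.91% of all genes. In 7 motor genes, or 17.1%, the values of the genotypes did not overlap, against 10.9% of all genes. The fitted difference was above 0 in 23 motor genes and below 0 in 18, with a median log2 difference of 0.02 against 0.00 over all genes. The 95% interval of the fold lay within a factor of 1.5 in either direction for 33 of the 41 and within a factor of 2 for 39. Over all genes tested those shares were 72.8% and 87.9%. In the plot of differences with their intervals the 8 intervals that reach beyond 1.5-fold belong to Dynll1, Dynll2, Dynlrb1, Dctn4, Dctn5, Kif3c, Kif19a and Kif26a.

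**Figure D1:**
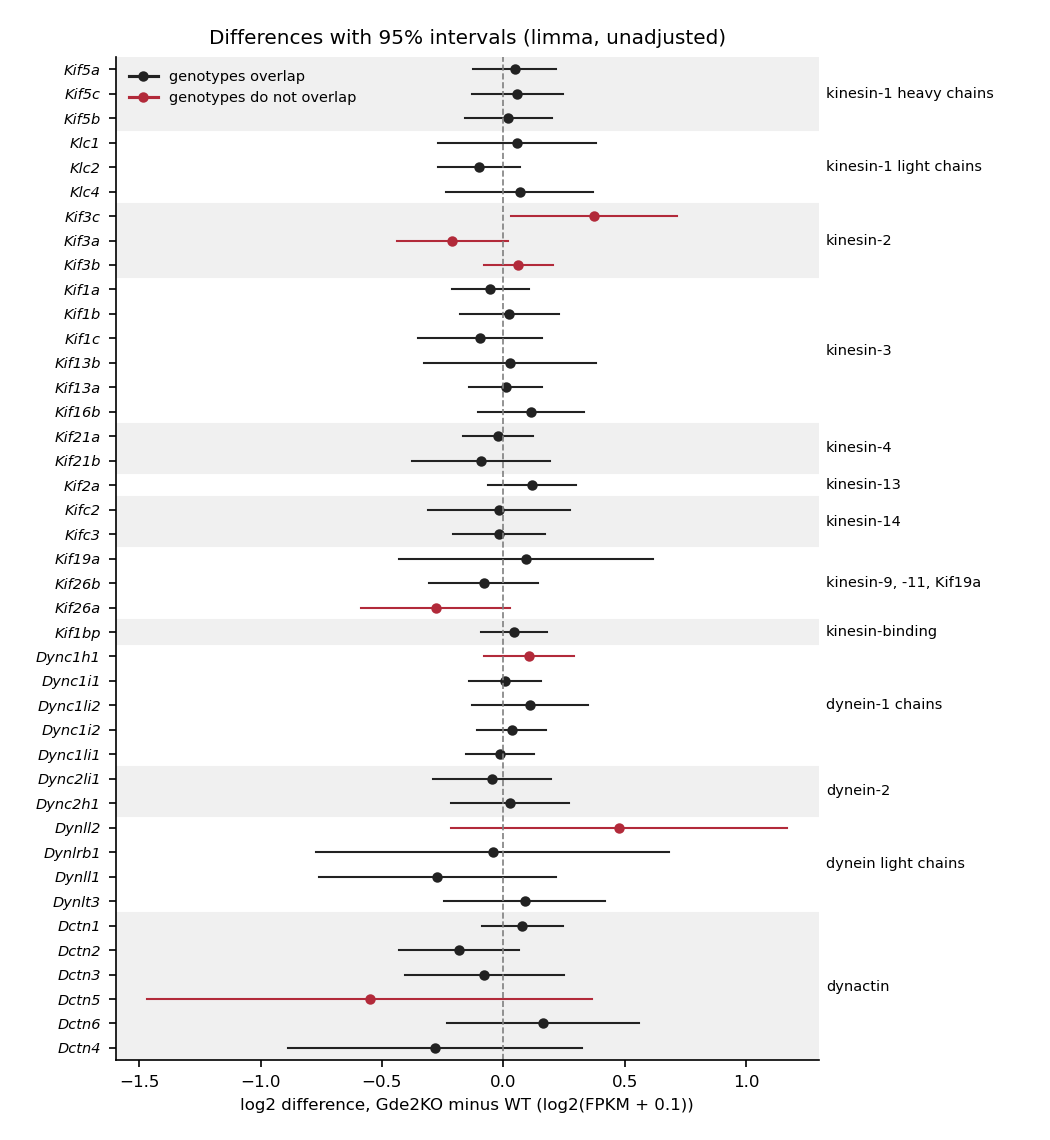
Log2 difference (Gde2KO minus WT, on log2(FPKM + 0.1)) of each of the 41 motor genes tested, with its 95% interval from limma, not adjusted for multiple tests, grouped by family. Red marks the 7 genes whose genotypes did not overlap; the interval of Kif3c alone leaves out 0, and its adjusted p is 0.882.

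Levels of the motor genes ran from 1.14 FPKM for Kif26a to 283 for Dynll2. A mean of 100 FPKM or more was reached by 9 motor genes, 22 lay from 10 to under 100 and 10 from 1 to under 10. The highest means were those of the light chain genes Dynll2, Dynlrb1 and Dynll1, with 283, 254 and 217 FPKM, above 98.4% of all genes tested. Their order was not kept, since Dynll2 exceeded Dynlrb1 in 3 of 6 libraries and Dynlrb1 exceeded Dynll1 in 4. Kif5a and Kif1a followed with 184 ± 6.80 and 182 ± 5.84 FPKM (SD, n = 6) and did not differ beyond their spread, Kif5a being the higher in 4 of 6 libraries. Below them Klc1, Kif1b, Kif5c, Dctn1 and Klc2 stood at 153, 138, 117, 108 and 97.6 FPKM. The levels are those of whole tissue, in which fewer cells of a type and less RNA per cell cannot be told apart.

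**Figure D2:**
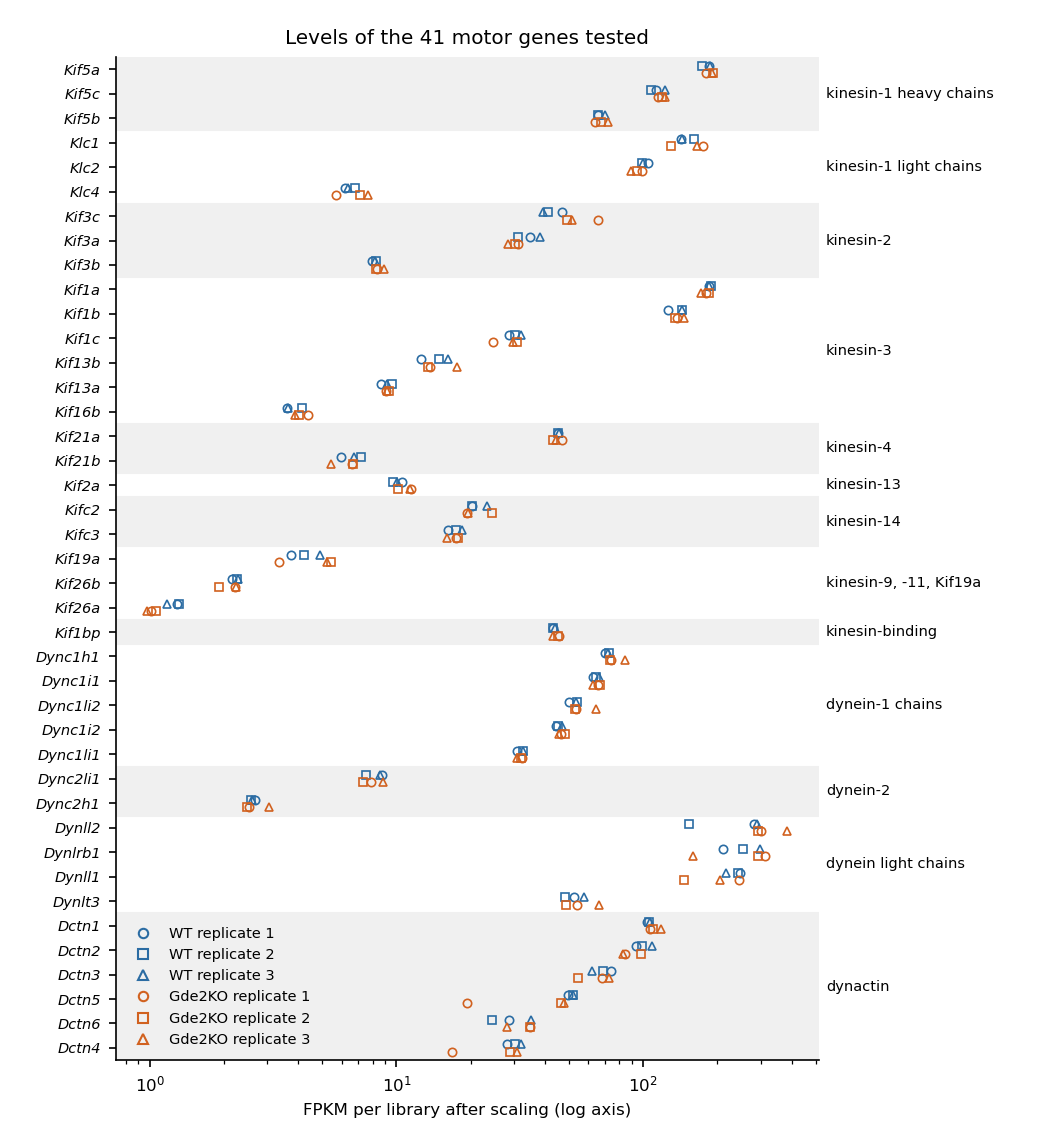
Level of each of the 41 tested motor genes in each library (FPKM after scaling, log axis), grouped by family and ordered by mean level within a family. Blue marks WT and orange Gde2KO, with a symbol per replicate; genes of 100 FPKM or more are found in kinesin-1, kinesin-3, the dynein light chains and dynactin.

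Kinesin-1, the carrier of mitochondria and of many vesicles, is built from a heavy chain with the motor domain (Kif5a, Kif5b or Kif5c) and a light chain that binds cargo. Kif5a, the heavy chain found mostly in neurons, stood at 184, 173 and 186 FPKM in WT, with 179, 192 and 190 in Gde2KO, a fold of 1.03 (0.918 to 1.16). Kif5c, also neuronal, stood at 113, 108 and 123 in WT, with 115, 119 and 123 in Gde2KO (fold 1.04, 0.914 to 1.18). Kif5b, the heavy chain present in most cell types, stood at 65.3, 65.5 and 69.7 in WT, with 63.8, 67.5 and 72.2 in Gde2KO (fold 1.01, 0.896 to 1.15). All 3 sets of values overlapped between the genotypes.

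On counted bases the mixture of heavy chains was the same to within 2 percentage points in every library. Kif5a made up 49.1% to 50.8% of the summed level of the 3 genes, Kif5c 31.1% to 32.5% and Kif5b 17.8% to 18.9%. On coding bases alone the mixture varied more, with Kif5b at 65.5 to 89.6 FPKM and Kif5c at 113 to 136. The ratio of Kif5a to Kif5b was 2.73 ± 0.0984 and that of Kif5c to Kif5b 1.73 ± 0.0565 (SD, n = 6). The coding sequences of Kif5a and Kif5c are identical at 69.2% of aligned positions and those of Kif5b and Kif5c at 70.4%. Klc1 stood at 143, 161 and 144 FPKM in WT, with 174, 130 and 165 in Gde2KO, and Klc2 at 104, 98.5 and 100.2 in WT, with 98.9, 94.8 and 89.03 in Gde2KO. Both overlapped between the genotypes, with folds of 1.04 (0.830 to 1.30) and 0.933 (0.829 to 1.05). Of the counted bases of Klc1, 75.5% to 87.1% were assembled in WT replicate 3 and the Gde2KO libraries and 100% in the others. Over the bases assembled in all 6 libraries Klc1 stood at 142, 158 and 229 FPKM in WT. In Gde2KO it stood there at 234, 206 and 219, so the genotypes overlapped but the fold of 1.04 depends on the bases counted. Klc4 was far lower, at 5.68 to 7.66 FPKM, and Klc3 was listed at 0 in WT replicate 1 with 0.178 to 1.57 FPKM in the other 5 libraries.

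In kinesin-2 the genotypes did not overlap for any of the 3 members tested, where 10.9% of all genes tested did not overlap. Those motors of this family that hold Kif3a pair it with Kif3b or with Kif3c and carry vesicles in axons and cargo in cilia. Kif17, also of this family, was not tested. Kif3c, on chromosome 12 from 3365132 to 3406494, stood at 47.0, 41.2 and 39.2 FPKM in WT, with 65.8, 49.03 and 51.3 in Gde2KO. The lowest Gde2KO value lay 2.04 FPKM above the highest WT value, and the fold was 1.30 (1.02 to 1.64; limma adjusted p = 0.882). Kif3a stood at 34.7, 31.1 and 38.2 FPKM in WT, with 31.03, 30.2 and 28.3 in Gde2KO, with a gap of 0.0912 FPKM between the genotypes and a fold of 0.865 (0.738 to 1.01). Kif3b was lower, at 7.95, 8.25 and 8.22 in WT and 8.37, 8.27 and 8.87 in Gde2KO (fold 1.04, 0.945 to 1.15). Its gap between the genotypes was only 0.0175 FPKM. None of the 3 passed the test. On counted bases Kif3c made up 45.8% to 52.4% of their summed level in WT and 56.0% to 62.6% in Gde2KO. Kif3a made up 38.6% to 44.6% and 29.5% to 34.6%. Of the counted bases of Kif3c, 84.5% were assembled in WT replicates 2 and 3 and 100% in the other libraries. The shares are parts of 1 sum and are not independent. Shares over the bases assembled in all 6 libraries were not computed, and on those bases the gap of Kif3c was only 0.177 FPKM.

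For Kif3c the extent of the assembled transcripts moved with the values. In the longest transcript of Kif3c the final exon had 473 bases in WT replicates 2 and 3 and 1138 in the other 4 libraries. Over the bases assembled in all 6 libraries Kif3c stood at 47.1, 49.0 and 46.6 FPKM in WT, with 66.0, 49.1 and 51.8 in Gde2KO, with a log2 difference of 0.21 in place of 0.37. The gap between the genotypes was then 0.177 FPKM, Kif3b overlapped on those bases, and without Gde2KO replicate 1 the log2 difference of Kif3c on all counted bases was 0.24. The final exon of Kif3b had 3271 to 3335 bases in the 6 libraries. That of Kif3a had 3223 bases in WT replicate 1, 798 in WT replicate 3 and 3231 in Gde2KO replicate 3, and did not follow the level. Over the bases assembled in all 6 libraries Kif3a stood at 35.7, 31.5 and 41.2 FPKM in WT, with 31.4, 30.6 and 28.8 in Gde2KO, still without overlap, with a gap of 0.0987 FPKM. Counted as fragments per gene, where assembled length is no divisor, Kif3a had a log2 difference of -0.0040.

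Kinesin-3, which carries synaptic vesicle precursors and dense core vesicles, had a summed level of 363 to 390 FPKM over its members, against 346 to 384 for the kinesin-1 heavy chains. Kif1a stood at 184, 188 and 185 FPKM in WT, with 180.3, 185 and 172 in Gde2KO (fold 0.964, 0.863 to 1.08). Kif1b stood at 126, 143 and 143 in WT, with 138, 135 and 146 in Gde2KO (fold 1.02, 0.884 to 1.17). Both overlapped between the genotypes. Kif1c, a motor with a wider tissue range, stood at 28.6, 30.1 and 32.0 in WT, with 24.7, 30.8 and 29.8 in Gde2KO. Kif13b stood at 12.6, 14.9 and 16.2 in WT, with 13.7, 13.4 and 17.5 in Gde2KO. The genotypes overlapped for each of the 6 tested members of the family, whose log2 differences ran from -0.10 to 0.11.

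Kif21a, a kinesin-4 that slows microtubule growth at its plus end, was among the steadiest genes, at 45.2, 45.1 and 45.5 FPKM in WT, with 46.7, 42.9 and 44.4 in Gde2KO (fold 0.986, 0.892 to 1.09). Its relative Kif21b was lower, at 5.95, 7.21 and 6.76 in WT, with 6.59, 6.66 and 5.43 in Gde2KO. Kif2a, a kinesin-13 that takes microtubules apart, stood at 10.5, 9.67 and 10.04 in WT, with 11.4, 10.1 and 11.3 in Gde2KO (fold 1.09, 0.958 to 1.23). Kifc2, a kinesin-14 of neurons, stood at 20.1, 20.3 and 23.3 in WT, with 19.4, 24.4 and 19.4 in Gde2KO. All 4 overlapped between the genotypes. Kif26a, whose product is a kinesin-like protein without motor activity, was the lowest gene tested. It stood at 1.29, 1.31 and 1.17 FPKM in WT, with 1.02, 1.06 and 0.979 in Gde2KO, without overlap, at a fold of 0.824 (0.666 to 1.02; limma adjusted p = 0.882). Kif1bp, which the naming rule takes in, encodes a protein that binds kinesins and is no motor, and its level was 43.0 to 45.8 FPKM.

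Cytoplasmic dynein-1 was read by its subunits. The heavy chain gene Dync1h1, which encodes the motor itself, stood at 70.3, 72.9 and 72.3 FPKM in WT, with 74.3, 73.6 and 84.3 in Gde2KO. The genotypes did not overlap, and the fold was 1.08 (0.945 to 1.22; limma adjusted p = 0.882), with the highest value in Gde2KO replicate 3. Without that library the log2 difference was 0.04 in place of 0.11. The intermediate chains, which bind dynactin, stood at 62.8, 64.5 and 66.2 in WT, with 65.5, 66.7 and 62.3 in Gde2KO for Dync1i1. For Dync1i2 the values were 44.4, 45.2 and 47.03 in WT and 46.5, 48.0 and 45.5 in Gde2KO. Their ratio was 1.40 ± 0.0203 (SD, n = 6), from 1.37 to 1.43, in favour of Dync1i1, the neuronal form.

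The light intermediate chains link dynein to its activating adaptors. Dync1li1 stood at 30.7, 32.5 and 32.6 FPKM in WT, with 32.1, 31.9 and 30.9 in Gde2KO. Dync1li2 stood at 50.2, 54.01 and 53.6 in WT, with 53.2, 53.1 and 64.5 in Gde2KO. The ratio of Dync1li2 to Dync1li1 was 2.09 in Gde2KO replicate 3 and 1.64 to 1.67 in the other libraries, which put Dync1li2 at 67.6% of the pair there and at 62.1% to 62.5% elsewhere. Dync2h1, the heavy chain of the dynein-2 that works in cilia, stood at 2.67, 2.57 and 2.61 in WT, with 2.51, 2.49 and 3.04 in Gde2KO. In each library Dync1h1 was 26.3 to 29.6 times the level of Dync2h1.

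The light chain genes Dynll1, Dynll2 and Dynlrb1 were the most abundant and the most variable of the dynein genes tested. Dynll1 and Dynll2 encode near-identical small proteins that also serve outside dynein, and their coding sequences are identical at 81.3% of positions. Dynll1 stood at 246, 243 and 216 FPKM in WT, with 245, 146 and 205 in Gde2KO. Dynll2 stood at 282, 153 and 290 in WT, with 301, 293 and 383 in Gde2KO, without overlap, at a fold of 1.39 (0.862 to 2.25; limma adjusted p = 0.882). Dynlrb1 stood at 210, 254 and 297 in WT, with 311, 292 and 159 in Gde2KO. The lowest library was WT replicate 2 for Dynll2, Gde2KO replicate 2 for Dynll1 and Gde2KO replicate 3 for Dynlrb1. Dynlt3 was lower and overlapped, at 52.3, 48.4 and 57.6 in WT, with 54.04, 48.8 and 66.3 in Gde2KO.

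In FPKM the low libraries were those with a longer assembled transcript. Dynll2 was assembled at 4517 bases in WT replicate 2, where it was low, and at 2454 to 2549 bases elsewhere. Dynll1 was assembled at 686 bases in Gde2KO replicate 2 and at 498 to 522 elsewhere. Dynlrb1 was assembled at 976 bases in WT replicate 1 and 928 in Gde2KO replicate 3, its lowest 2 libraries, and at 698 to 800 in the other 4. FPKM divides by assembled length, and the part of length in the low values was not tested. Counted as fragments per gene, the same 3 genes varied less, with a coefficient of variation over the 6 libraries of 12.6% in place of 26.1% for Dynll2, 8.67% in place of 17.8% for Dynll1 and 13.4% in place of 23.3% for Dynlrb1. On that scale, FPKM before its division by length, Dynlrb1 stood at 205, 204 and 211 in WT, with 220, 210 and 146 in Gde2KO, so that Gde2KO replicate 3 was still lowest. Dynll1 was still lowest in Gde2KO replicate 2, at 101 against 107 to 123 elsewhere. Without WT replicate 2 the log2 difference of Dynll2 was 0.18 in place of 0.48, and it was 0.18 as fragments per gene. As fragments per gene Dynll2 stood at 706, 695 and 743 in WT, with 751, 732 and 956 in Gde2KO, and the genotypes overlapped.

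**Figure D3:**
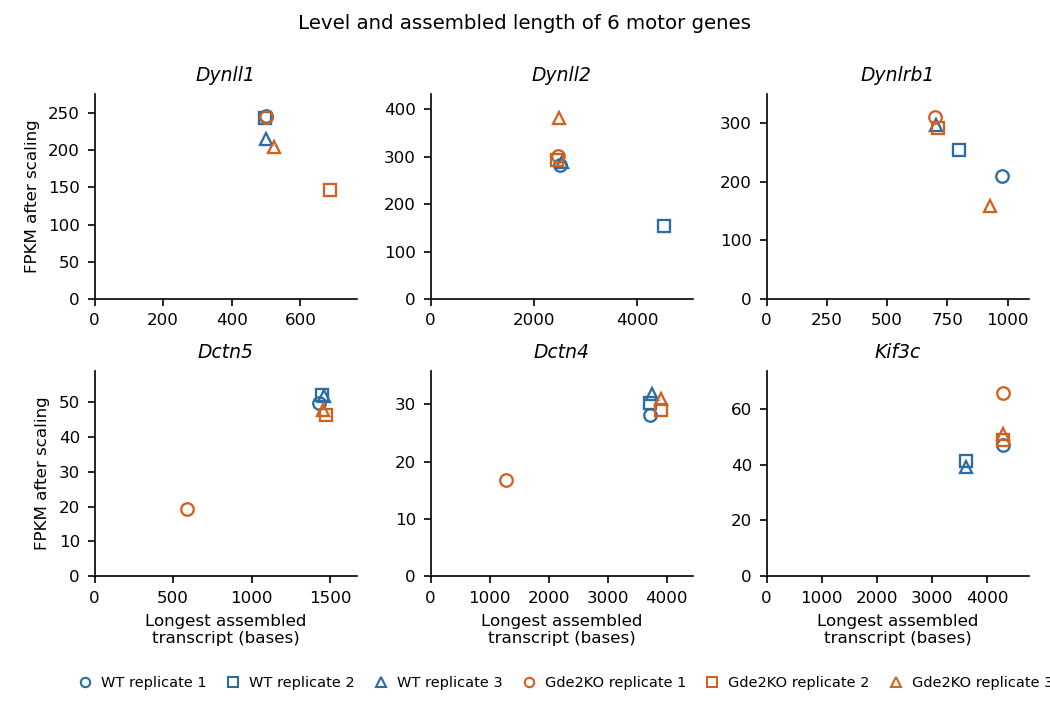
Level (FPKM after scaling) against the length in bases of the longest assembled transcript for 6 motor genes, with 1 point per library, blue for WT and orange for Gde2KO. Libraries with a longer transcript are low for Dynll1, Dynll2 and Dynlrb1, and the library with a truncated transcript, Gde2KO replicate 1, is low for Dctn5 and Dctn4.

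Dynactin links dynein to its cargo, and its largest subunit, encoded by Dctn1, binds both dynein and microtubules. Dctn1 stood at 104, 105 and 107 FPKM in WT, with 106, 109 and 118 in Gde2KO (fold 1.06, 0.940 to 1.18). In each library Dctn1 was 1.40 to 1.48 times the level of Dync1h1. Dctn2, the subunit that holds the arm of the complex together, stood at 93.3, 98.5 and 108.5 in WT, with 84.1, 98.1 and 82.9 in Gde2KO (fold 0.882, 0.743 to 1.05). Dctn5, a subunit of the pointed end, stood at 49.8, 52.1 and 51.9 in WT, with 19.3, 46.3 and 47.9 in Gde2KO, without overlap, at a fold of 0.683 (0.362 to 1.29; limma adjusted p = 0.882).

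Gde2KO replicate 1 alone was far below the others for Dctn5, and also for Dctn4, at 16.7 FPKM against 28.1 to 31.9. In that library the final exon of the longest transcript had 39 bases for Dctn5, against 889 to 915 elsewhere, and 35 bases for Dctn4, against 2455 to 2477. Of the counted bases, 40.4% of Dctn5 and 33.8% of Dctn4 were assembled there. Over the bases assembled in all 6 libraries Dctn5 stood at 50.5, 52.6 and 52.03 FPKM in WT, with 47.8, 46.4 and 48.4 in Gde2KO. The genotypes still did not overlap there, with a gap of 2.14 FPKM, and the log2 difference was -0.12 in place of -0.55. The same value was reached without Gde2KO replicate 1. Over such bases Dctn4 stood at 28.3, 30.4 and 32.1 FPKM in WT, with 49.6, 29.2 and 31.4 in Gde2KO, and Gde2KO replicate 1 was then the highest library.

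The spread between libraries was larger in short genes. The median coefficient of variation of the motor genes was 7.96%, against 10.2% over all genes tested. It was 14.7% for the 7 motor genes with under 2000 counted bases, 10.1% for the 17 from 2000 to under 5000 and 6.49% for the 17 with 5000 or more. Across the 41 genes, which share libraries and are no independent replicates, Spearman's rho of the coefficient with counted bases was -0.38 and with mean level -0.03. As fragments per gene the median coefficient was 6.19%. Dync1li1, Dync1i1, Dync1i2, Kif21a and Kif1bp lay between 2.63% and 2.85%.

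**Figure D4:**
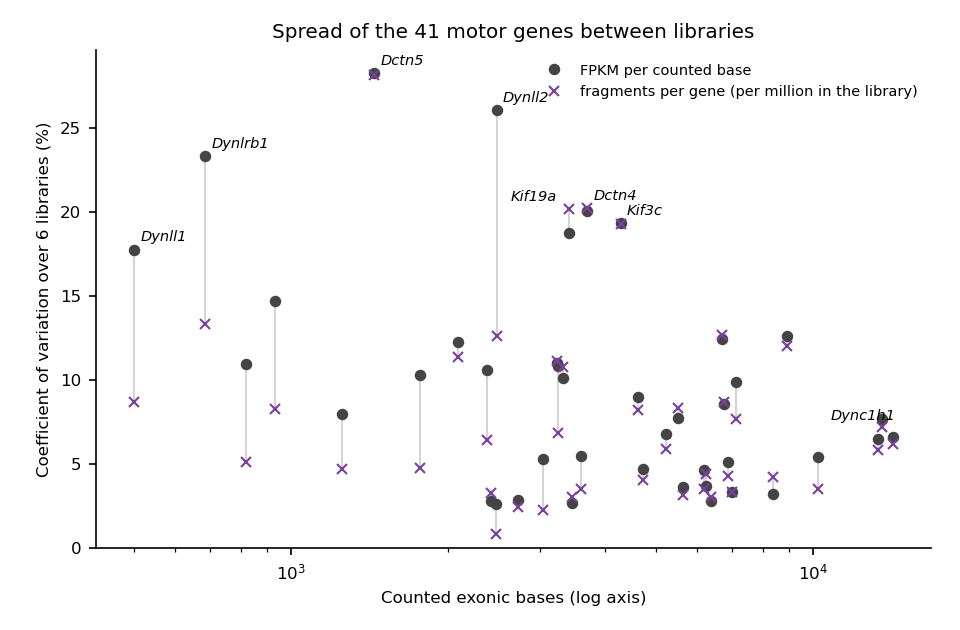
Coefficient of variation over the 6 libraries (%) of each of the 41 motor genes tested, against its counted exonic bases (log axis). Dots give the FPKM per counted base and crosses the fragments per gene of the same gene, joined by a line; for Dynll1, Dynll2 and Dynlrb1 the cross lies well below the dot.

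Of the 27 members that were not tested, 15 had no counted bases. They comprise the mitotic kinesins Kif14, Kif15, Kif18b, Kif20a, Kif20b, Kif23, Kif2c and Kif4, together with Kif2b, Kif12, Kif28 and the 4 genes Dynlt1a, Dynlt1b, Dynlt1c and Dynlt1f. The coding sequence of Dynlt1b is identical to each of those of Dynlt1a, Dynlt1c and Dynlt1f at 99.7% of positions and to that of Dynlt3 at 63.3%, and genes with such copies are uncertain here, so that no level is given for the Dynlt1 genes. The other 12 had a mean under 1 FPKM. Among them Kif17 was at 0.818 to 1.23 FPKM in 5 libraries and listed at 0 in Gde2KO replicate 3. Kif24 was at 0.308, 0.382 and 0.335 in WT and listed at 0 in Gde2KO replicates 1 and 2 with 0.157 in replicate 3. Kifc1 and Kifc5b, identical at 98.1% of aligned coding positions, are uncertain at 0 to 0.984 FPKM.

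Splicing of the motor genes was read from the share of each gene's FPKM held by transcripts with a given intron chain, the ordered set of a transcript's introns. Over all genes 1 of 2305 tested shares passed limma at an adjusted p of 0.05 (0.0434%), an isoform of Abi3, which is no motor gene. Of the motor genes, 23 isoforms of 19 genes were assembled in all 6 libraries, 12 isoforms of 9 genes were tested, and 0 passed, with 0 at an unadjusted p of 0.05 against 4.21% of all tested. The smallest p belonged to the annotated isoform Kif1b-202, at 17.1%, 22.1% and 17.6% of Kif1b in WT, with 32.3%, 30.9% and 20.4% in Gde2KO. The genotypes overlapped, and its limma adjusted p was 0.873. The isoform Kif1b-203 took 46.7% to 58.4% of the gene. Dync1i2-201 ranged from 31.7% to 70.6% with overlap of the genotypes, the main isoform of Dctn6 from 53.3% to 100%, and that of Dctn4 from 73.4% to 100%. A 36-exon isoform of Kif21a that matches no annotated chain held 23.1% to 49.5%.

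Dync1i1 was the steadiest case. Its isoforms Dync1i1-203 and Dync1i1-204, which differ in the 33 bases printed above, took 40.7% to 44.05% and 56.0% to 59.3% of the gene in all 6 libraries. In Kif1a the 48-exon form with 60.8% to 84.6% of the gene matched no annotated intron chain.

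Cassette exons, annotated internal exons that some transcripts hold and others skip, gave a second reading, chosen after the data had been seen. Of 869 such exons over all genes 0 passed limma (0%), with 42 at an unadjusted p of 0.05 (4.83%). The motor genes had 16 of them in 9 genes, of which 0 passed and 0 were at an unadjusted p of 0.05. Of the 16, 13 were both coding and a multiple of 3 in length, so that taking those up keeps the reading frame.

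Several of the 16 were very short. Exons of this kind, called microexons, are known chiefly from neurons. Shares are given of the FPKM of transcripts that hold or skip the exon. The 27-base exon of Kif1a was held at 15.4%, 25.5% and 15.3% in WT, with 17.95%, 15.8% and 16.8% in Gde2KO. The 60-base exon of Dync1i2 was steady at 27.6% to 33.9%, and the 42-base exon of Dync1li2 at 72.5% to 80.2%. The 9-base exon of Kif3a, the shortest, was held at 75.3%, 29.5% and 24.6% in WT, with 51.4%, 32.6% and 70.9% in Gde2KO, a spread within each genotype larger than the difference between them. The 39-base exon of Kif13a ran from 20.6% to 37.3%, and the paired 182- and 139-base exons of Kifc3, which had the same share in each library, from 33.6% to 41.2%.

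In 3 of the 16 exons, or 18.8%, the genotypes did not overlap, against 10% of the 869 exons. The 42-base exon of Kif1b was held at 58.4%, 67.8% and 51.5% in WT, with 47.0%, 49.7% and 49.9% in Gde2KO (limma adjusted p = 0.911). Kif21a had 6 of the 16 exons. Its 15-base exon was held at 53.2%, 52.4% and 43.3% in WT, with 55.8%, 71.3% and 64.9% in Gde2KO (limma adjusted p = 0.911), and its 108-base exon at 64.3%, 60.1% and 57.2% in WT, with 52.4%, 50.5% and 56.4% in Gde2KO (limma adjusted p = 0.934). The 21-base exon of the same gene overlapped, at 43.6% to 60.2%, and so did the 18-base exon of Kif1b, at 49.9% to 69.1%. The shares are the assembler's estimates for whole transcripts, so exons of 1 gene are not independent.

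**Figure D5:**
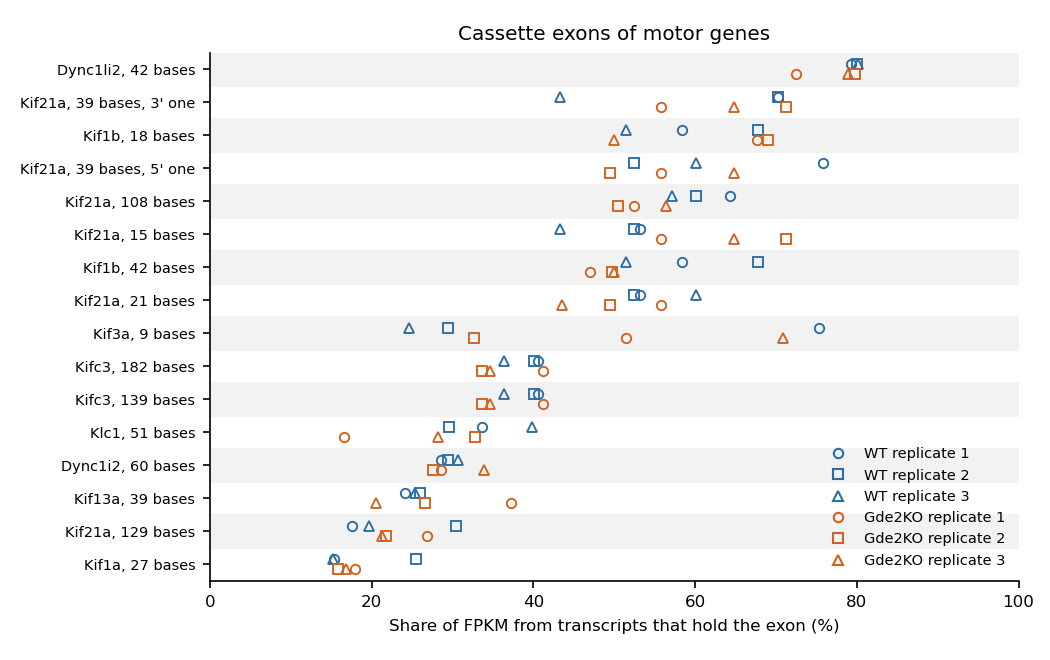
Share of transcripts that hold a cassette exon in the FPKM of those that hold or skip it (%), for the 16 tested exons of motor genes. There is 1 point per library, blue for WT and orange for Gde2KO. The exons of Dync1i2 (27.6% to 33.9%) and Dync1li2 (72.5% to 80.2%) vary little, and the 9-base exon of Kif3a runs from 24.6% to 75.3%.

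Motors act through adaptors and regulators. Of a list of 64 symbols drawn up for such genes, 57 were tested, Kif1bp among them as well as among the motor genes. The difference was above 0 in 33 and below 0 in 24, with a median log2 difference of 0.03 and 0 past the threshold. In 2 of the 57 the genotypes did not overlap, against 10.9% of all genes tested. The smallest p belonged to Plekhm2, an adaptor that joins lysosomes to kinesin-1. It stood at 26.5, 33.4 and 30.1 FPKM in WT, with 20.8, 21.1 and 20.2 in Gde2KO, without overlap, at a fold of 0.694 (0.589 to 0.819), and it did not pass (limma adjusted p = 0.621). Spag9, a scaffold for kinesin-1 and dynein, stood at 34.3, 34.3 and 52.6 in WT, with 49.7, 51.9 and 54.2 in Gde2KO. Hap1, the huntingtin partner that binds dynactin, stood at 36.6, 31.2 and 33.0 in WT, with 30.3, 30.8 and 30.2 in Gde2KO, without overlap (limma adjusted p = 0.882). Camsap3, which caps the minus ends of microtubules, stood at 7.20, 7.62 and 7.75 in WT, with 7.66, 6.56 and 5.66 in Gde2KO.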

How the data were processed

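The authors deposited 1 assembly per library, with FPKM values given per assembled transcript. The submitters' processing notes name FastQC, TopHat2 2.1.1, Cufflinks 2.2.1, Cuffdiff 2.2.1 and the build mm10. The deposited files give no counts, so no count test was made.

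Transcripts of at least 200 exonic bases were matched to GENCODE vM21 by exon overlap on the same strand, and strandless ones on either strand where no exon lay opposite. At each exonic base of a gene the FPKM of all covering transcripts was added, and a gene's level was the mean over its counted bases, those that belong to it alone and were assembled in at least 3 of 6 libraries. A minimum of 200 counted bases and of a mean of 1 FPKM was set for testing. Levels were divided by median-of-ratios factors of 0.989 to 1.04. Values of log2(FPKM + 0.1) were fitted in limma 3.58.1 (R 4.3.3) with trend and robust moderation, two-sided, Benjamini-Hochberg adjusted over all genes, at 0.05. The pseudocount understates changes of low genes. A value of 0 can be a failed assembly. An exact permutation of 3 against 3 libraries was not used for single genes.

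Isoforms were matched by exact intron chain, and 6799 were assembled in all 6 libraries. Shares averaging 10% to 90%, of genes with a mean FPKM of 5 or more, were tested on log2-odds with an offset of 0.01. Cassette exons held and skipped in all 6 libraries were tested likewise, in genes with the same minimum mean FPKM. No limit was set on their average share. Their share was the FPKM of transcripts that hold the exon over that of transcripts that hold or skip it. The scripts were tested on simulated data. Extent and depth limit precision, and no read depth is given. Named genes were Gdpd5, those past the threshold, up to 10 members of smallest p without overlap, the 10 of highest level, a fixed set of 26 (motor, light chain and dynactin genes), 4 adaptors, and up to 6 isoforms; Kif1bp, Klc3, Klc4, Dctn4, Kif17, Kif24 and the exons were added after their values were seen. The members and lists were chosen with earlier results of these data known.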

Additional observations from a re-analysis of the deposited data

How the results depend on the processing

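Under all 21 alternatives to the gene fit (other levels, counted bases, filters, pseudocount, scaling, moderation, the replicate block and each library left out) 0 motor genes passed, and the smallest adjusted p of any was 0.784. Of the 30 named motor genes, 13 kept 1 sign throughout. With no scaling beyond the FPKM the median over all genes was -0.03 and that of the motor genes -0.01, and 17 of them lay above 0. The count over all genes was 15 and became 8 as fragments per gene, 4 on bases assembled in all 6 libraries, 1 at a mean FPKM of at least 5, 4 with values at 0 as missing and 2 with the replicate block. Leaving out 1 library gave 10 to 26, with 26 without WT replicate 2, 25 without Gde2KO replicate 2 and 25 without Gde2KO replicate 3. With 1 library left out the isoform count was 0 to 3, and 0 with the replicate block. For cassette exons, a result added after the data had been seen, it was 0 under each of these. Gdpd5 did not pass as the plain sum of transcripts (-1.45, adjusted p 0.0775) or with the replicate block (adjusted p 0.155). Same-numbered libraries did not deviate together (correlations 0.01, 0.04 and -0.07, against -0.06 to 0.05 for the other pairs). The labels do not say whether the numbers pair libraries, and with 3 libraries per genotype these correlations cannot decide it. The plain sum moved Dynlt3 to -0.65, Kif13b to -0.50 and Kif5c to -0.39, and Kif1c to 0.53 and Klc1 to 0.46, none of which passed. The cause was not tested. For 8 of the 41 motor genes the 95% interval reached beyond 1.5-fold.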

Other observations

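Kif19a, a kinesin of cilia tips, was held in all 3 WT libraries entirely by its annotated 20-exon isoform, and in Gde2KO that isoform took 84.1%, 72.9% and 74.8% of the gene. The gene's level was 3.35 to 5.43 FPKM, under the minimum for isoforms, so this was not tested, and it was chosen after its values were seen. Each WT library held 1 assembled transcript of Kif19a and each Gde2KO library 2. How often isoform shares do not overlap over all genes is not given. The sum of the ependymal and motile cilia markers was 34.5 to 81.9 FPKM in WT and 66.7 to 78.4 in Gde2KO, and their part in the share was not tested.

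Kifap3, which encodes the protein that joins the kinesin-2 motors to cargo and was also chosen after its values were seen, stood at 61.6, 60.6 and 61.0 FPKM in WT, with 62.2, 62.6 and 43.1 in Gde2KO. It was thus steady in 5 libraries and low in Gde2KO replicate 3.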
